A study of Mus musculus with 8 samples.

Results

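The cytosolic ribosomal proteins are the protein subunits of the ribosome that translates messenger RNA in the cytoplasm, and their messenger RNAs were measured in mouse hearts after lipopolysaccharide (LPS), a cell-wall component of Gram-negative bacteria. Members were the gene probes of the array whose RefSeq accession belongs to a gene symbol beginning with Rpl or Rps and a digit, to Rplp0, Rplp1 or Rplp2, or to Rpsa. Kinases of the Rps6k family, Rps19bp1 and pseudogene symbols were left out. The rule uses names and no measured value. It found 80 genes among the 15596 genes with a probe, 31 of the small and 49 of the large subunit, covered by 105 of 35078 gene probes, and 72 of them were bright enough to be tested.

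All 8 mice were female, 12 weeks old and of the inbred strain C57BL/6, kept on chow in a barrier facility, and no transgene or deletion is named for either group. In the LPS group 4 mice were given 5 mg/kg LPS into the peritoneum, and 4 control mice were given saline by the same route. Hearts were flushed with phosphate-buffered saline and collected 8 h after the injection, and the RNA of pieces of each heart was hybridised to 1 array. A piece of heart holds myocytes, vessel cells, fibroblasts and blood-derived cells, so fewer cells of a type and less RNA per cell cannot be told apart in these values.

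A ribosome has a small subunit, which reads the message, and a large subunit, which joins amino acids, and each ribosomal protein is needed in about equal number. Most of their messenger RNAs carry a terminal oligopyrimidine (TOP) tract, a C followed by pyrimidines at the very start of the transcript, through which the kinase mTOR and the protein Larp1 control their translation and stability. In the heart, ribosome number is known to rise with growth of the muscle cell, through RNA polymerase I and the transcription factor Myc. The array measures messenger RNA and neither ribosomes nor translation.

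The start regions below show, for some members, the sequence around the annotated start, where a TOP tract would lie. They are RefSeq windows on GRCm38.p6, from 70 bases before the annotated start to 30 bases after it, read on the strand of the gene. Capitals mark the longest run that opens with C and continues with at least 7 pyrimidines, and the letters CCGGAAG or their reverse complement CTTCCGG, a core recognised by ETS factors. Rpl41 was the member called different in LPS hearts, Rpl27a and Rpl38 had large changes that were not called, Rps6 had the most positive change, also not called, Rpl13 is a bright member, and Rpl3l is the paralog restricted to striated muscle. The windows lie at chr10:128549139-128549238 (minus strand) for Rpl41, chr7:109519125-109519224 (plus) for Rpl27a, chr11:114668510-114668609 (plus) for Rpl38, chr4:86857338-86857437 (minus) for Rps6, chr8:123102280-123102379 (plus) for Rpl13 and chr17:24727756-24727855 (plus) for Rpl3l.
Rpl41: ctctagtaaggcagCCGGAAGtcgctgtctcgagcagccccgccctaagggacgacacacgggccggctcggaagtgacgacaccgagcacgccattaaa
Rpl27a: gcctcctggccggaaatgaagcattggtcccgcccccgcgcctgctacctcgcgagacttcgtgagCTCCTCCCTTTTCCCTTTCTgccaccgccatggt
Rpl38: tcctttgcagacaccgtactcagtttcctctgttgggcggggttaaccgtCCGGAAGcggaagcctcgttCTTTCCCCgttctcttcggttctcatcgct
Rps6: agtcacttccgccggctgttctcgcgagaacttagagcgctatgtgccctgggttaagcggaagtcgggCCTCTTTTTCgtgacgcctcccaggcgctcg
Rpl13: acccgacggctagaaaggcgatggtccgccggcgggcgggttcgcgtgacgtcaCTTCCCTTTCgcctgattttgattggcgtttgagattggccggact
Rpl3l: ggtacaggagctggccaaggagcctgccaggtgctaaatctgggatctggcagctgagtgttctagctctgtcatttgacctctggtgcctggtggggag

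The run of Rpl38 was 8 bases long and began at position 1, the annotated first base of the transcript. That of Rps6 was 10 bases long and began at position -1, and that of Rpl27a was 20 bases long from position -4, where negative positions lie before the start. The run of Rpl13 was 10 bases long and began at position -16, so it lay wholly before the annotated start. Rpl41 and Rpl3l held no such run in this window. A run was counted anywhere in the window, so the shares below are not shares of TOP tracts. Of the 80 members, 61 had a start region in the RefSeq table, and the first listed start was used. A run was present in 34 of the 61 (55.7%), against 29.5% of the start regions of all 27025 genes in the table and 29.7% of 17492 protein-coding genes. A short pyrimidine word (CTTTTC, or else CTTTCC, or else CTCTTT) on the sense strand, which can lie within such a run, was present in 34.4% of members and 10.8% of all genes. CCGGAAG on either strand was present in 24.6% of members, 5.73% of all genes and 7.68% of protein-coding genes. The E-box CACGTG, which reads the same on both strands and is bound by Myc among other factors, was present in 3.28% of members and 3.24% of all genes. Tested members with a run (29 genes) had a median log2 change of -0.0049 and those without (25 genes) one of -0.09.

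The arrays were spotted long-oligonucleotide arrays read in 1 colour. By the leading digits of their barcodes, LPS 2, LPS 3 and LPS 4 belong to 1 slide series and LPS 1 and the 4 saline arrays to another, so a fit with the series as a block draws its contrast from LPS 1. On the first of 3 scan days the LPS arrays are all of one series and the saline arrays all of the other, and there slide series and treatment cannot be told apart. Between 37.3% and 46.9% of gene probes exceeded the limit set by negative-control spots. The median spot intensity of the members over local background was 3530 to 5309 with LPS before normalization and 4827.5 to 13984 with saline, highest on saline 1. Values below are log2 intensities after background correction and quantile normalization, which gives every array the same distribution, and a change is the LPS mean minus the saline mean. Of the 72 tested members 69 were above background on all 8 arrays. In mean level 61 of them lay in the top 25% of all tested features, a description of these probes and not of transcript number. Cardiomyocyte markers (Myh6, Tnnt2, Tnni3, Actc1, Myl2, Ryr2 and Pln) were all bright, with a mean log2 intensity per array of 13.64 to 13.88 with LPS and 13.87 to 14.69 with saline. No marker of the 7 was called by limma, and 3 were lower at an unadjusted p under 0.05. The changes of the 7 ran from -0.85 to -0.18, with a median of -0.54. Myh6 and Myl2 had every LPS array below every saline array, as 12.1% of all features had. The spot of Myl2 was saturated on 2 arrays and that of Myh6 on 1, where the values are lower bounds. All 4 tested neutrophil markers of 7 were called higher. Their mean was 6.17 to 7.40 on the saline arrays and 8.18 to 8.49 on the LPS arrays. Csf3r was above background on 4 LPS arrays and 0 saline arrays, so its place among the tested markers came from the LPS arrays alone. S100a9 was above background on 4 LPS arrays and 2 saline arrays. Of 6 endothelial markers 1, Tek, was called lower, with a median change of -0.40 and array means of 8.98 to 9.57 with LPS beside 9.64 to 9.99 with saline. Of 6 fibroblast markers 2 were called lower and 1 higher (median -0.69; 9.30 to 9.94 with LPS, 9.70 to 10.67 with saline). Of 4 tested erythroid markers of 5, 1 was called lower (Hbb-bt; median -0.86; 9.11 to 9.88 with LPS, 9.68 to 10.97 with saline), and of 5 tested monocyte and macrophage markers of 8, 1 was (Lyz2; median -0.07; 8.71 to 9.19 with LPS, 8.80 to 9.25 with saline). The 1 tested lymphocyte marker of 7, Cd3e, was dim and was not called (change 0.06). The part of these cells in the results below was not tested.

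Few ribosomal protein messages were called different 8 h after LPS. Limma's moderated test, with Benjamini-Hochberg adjustment over 12123 features (8874 genes and 3249 unnamed probes) and a threshold of 0.05, called 1 of the 72 members, Rpl41, lower in LPS hearts, where it called 18.7% of all features. No member was called higher, where 9.3% of features were, and the 1 lower call (1.39%) stands beside 9.35%. At an unadjusted p under 0.05 there were 4 members higher and 5 lower, 12.5% of the members, against 32.6% of all features. Among features in the top 25% of mean level limma called 21.1%, and 1 of the 61 members there.

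Most of the fitted changes were small. Their median was -0.06 on the log2 scale, with quartiles of -0.24 and 0.07 and a range from -1.14 to 0.50, beside a median of -0.04 over all features. The median was -0.04 over the 27 small subunit genes and -0.07 over the 45 large subunit genes. Negative changes numbered 46 of 72 (63.9%), against 54.7% of all features. A change of at least 2-fold, whatever its p, was seen in 1 member, Rpl36, against 6.41% of features. No member was both called and changed by at least 2-fold, where 6.15% of features were. The 95% interval of the change lay within 2-fold either way for 65 members (90.3%; 81.8% of all features) and within 1.5-fold for 35 (48.6%; 47.2%). For the other members a change of 1.5-fold or more lay inside the interval. The sign of the median depended on the setting. It was 0.03 with array weights, 0.07 within the first scan day and -0.0022 with cyclic loess, and under median scaling over all gene probes, which moved the median of all features to -0.31, it was -0.44.

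**Figure D1:**
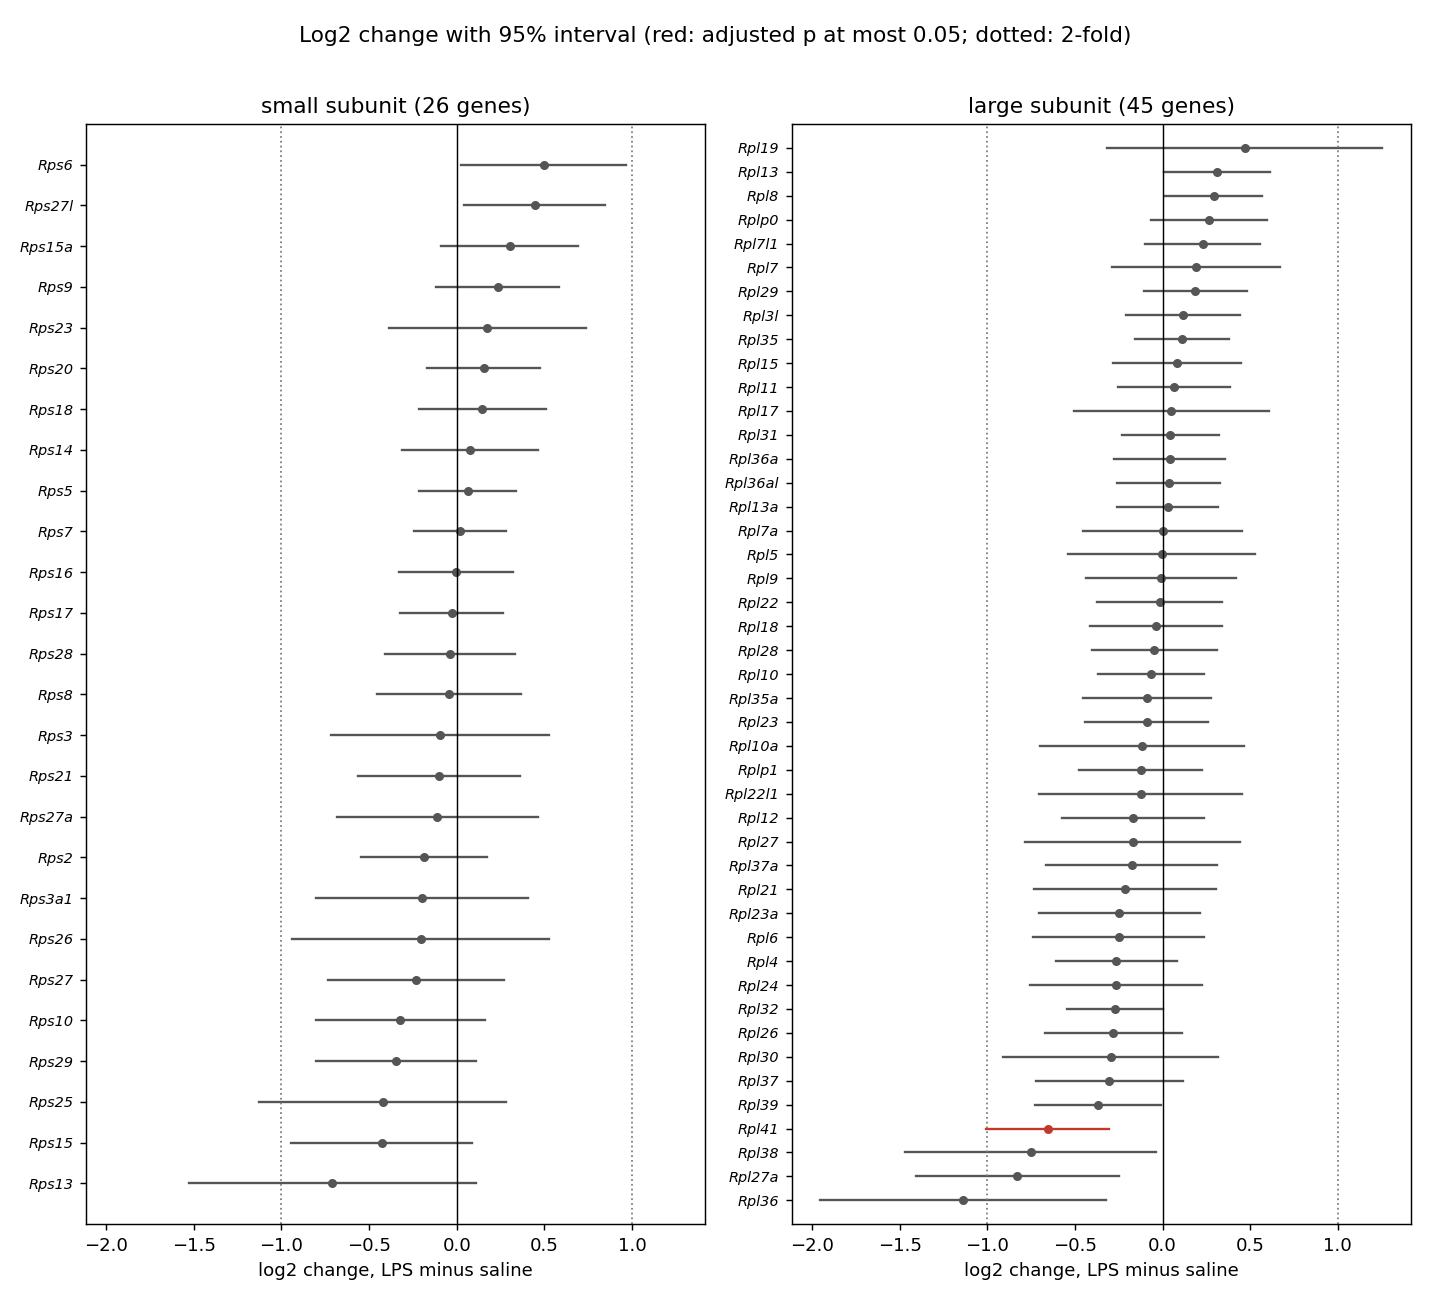
Log2 change, LPS minus saline, of ribosomal protein genes (points) with the 95% interval of each (lines), for 26 of the 27 tested small subunit genes on the left and all 45 large subunit genes on the right; dotted lines stand at 2-fold. Red marks Rpl41, the 1 gene with an adjusted p of at most 0.05, and the changes of the genes drawn lie between -1.14 and 0.50.

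Rpl41 encodes a very short, strongly basic peptide of the large subunit, and the gene lies on chromosome 10 from 128548110 to 128549168 (GRCm38.p6). Its normalized log2 intensity was 14.80, 15.02, 14.75 and 14.94 in the LPS hearts, in the order of their arrays, and 15.88, 15.15, 15.55 and 15.56 in the saline hearts. Every LPS array lay below every saline array. Its mean fell from 15.53 ± 0.30 (SD, n = 4) to 14.88 ± 0.12 (n = 4), a log2 change of -0.65 (SE 0.16, limma adjusted p = 0.0176) or 0.636 of the saline level, with a 95% interval of 0.498 to 0.810. The difference between the means exceeded the SD of either group, and was less than the range of the saline arrays. The spot was saturated on saline 1, where its value is a lower bound, and without that array the change was -0.59 (SE 0.15, adjusted p = 0.0338). It was -0.71 (adjusted p = 0.0477) within the first scan day, and LPS 1 lay 0.35 below saline 2 on the second. The call ended under cyclic loess (-0.37, adjusted p = 0.119), median scaling over the tested probes (-0.42, 0.106) and the slide series as a block (-0.73, 0.127), and with mean spot intensities the change was -0.29 (0.0491); over all alternatives adjusted p ran from 0.0104 to 0.127.

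Separation of the groups was rare among the members. Besides Rpl41 only Rpl32, a large subunit protein, had all LPS arrays on one side of all saline arrays, so that 2 of 72 members (2.78%) did, both lower, against 23.2% of all features and 12.1% in the lower direction. Rpl32 read 13.13, 12.84, 13.25 and 13.19 on the LPS arrays and 13.35, 13.40, 13.31 and 13.43 on the saline arrays. The gap between the groups was narrow and the change of -0.27 (SE 0.12, limma adjusted p = 0.153) was not called. Without a new fit, the mean of LPS 2, LPS 3 and LPS 4 minus that of saline 3 and saline 4 was -0.28. The difference LPS 1 minus saline 2 was also -0.28.

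The members with the largest falls, Rpl36, Rpl27a and Rpl38, varied among the saline arrays (SD 0.86, 0.45 and 0.45). They also varied among the LPS arrays (SD 0.32, 0.44 and 0.66). The median SD over the members was 0.28 with saline and 0.25 with LPS. Rpl36, Rpl27a, Rpl38, Rpl39, Rpl8 and Rpl13, like Rpl32, are described because of values already seen. Rpl36, of the large subunit, read 9.48, 8.76, 9.01 and 8.89 on the LPS arrays and 11.11, 10.70, 9.42 and 9.46 on the saline arrays. The first and second saline arrays stood far above the other saline arrays, which lay just under LPS 1. Its change was -1.14 (SE 0.37, limma adjusted p = 0.0562). It was -0.55 (adjusted p = 0.0825) within the first scan day and -0.75 (adjusted p = 0.0210) with scan day as a block, and it was called in 7 of 25 alternatives (adjusted p 0.0210 to 0.527).

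Rpl27a, a large subunit protein, read 9.74, 9.41, 10.37 and 9.49 on the LPS arrays and 10.88, 11.02, 10.37 and 10.05 on the saline arrays. The groups overlapped through LPS 3. Its change was -0.83 (SE 0.26, limma adjusted p = 0.0510), past the threshold in 6 of 25 alternatives (adjusted p 0.0114 to 0.440). It was -0.45 (adjusted p = 0.440) within the first scan day and -0.46 (adjusted p = 0.357) without saline 1 and saline 2. A further pair of Rpl27a probes above background gave -0.25 and -0.15.

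Rpl38, a large subunit protein known in the mouse for its part in translating homeobox messages, read 11.43, 13.01, 12.49 and 12.19 on the LPS arrays. It read 13.52, 13.29, 12.56 and 12.76 on the saline arrays, so LPS 2 lay among the saline values. The change was -0.75 (SE 0.32, limma adjusted p = 0.135) at this probe, and the other probes of the gene gave 0.36 and 0.25, the opposite sign. With the slide series as a block the change was -1.60 and was called (adjusted p = 0.0412), and within the first scan day it was -0.11 (adjusted p = 0.838). Rpl39, a small protein of the large subunit that lines the exit tunnel, changed by -0.37 (SE 0.16, adjusted p = 0.145), with LPS arrays from 13.42 to 14.13 and saline arrays from 13.94 to 14.27.

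**Figure D2:**
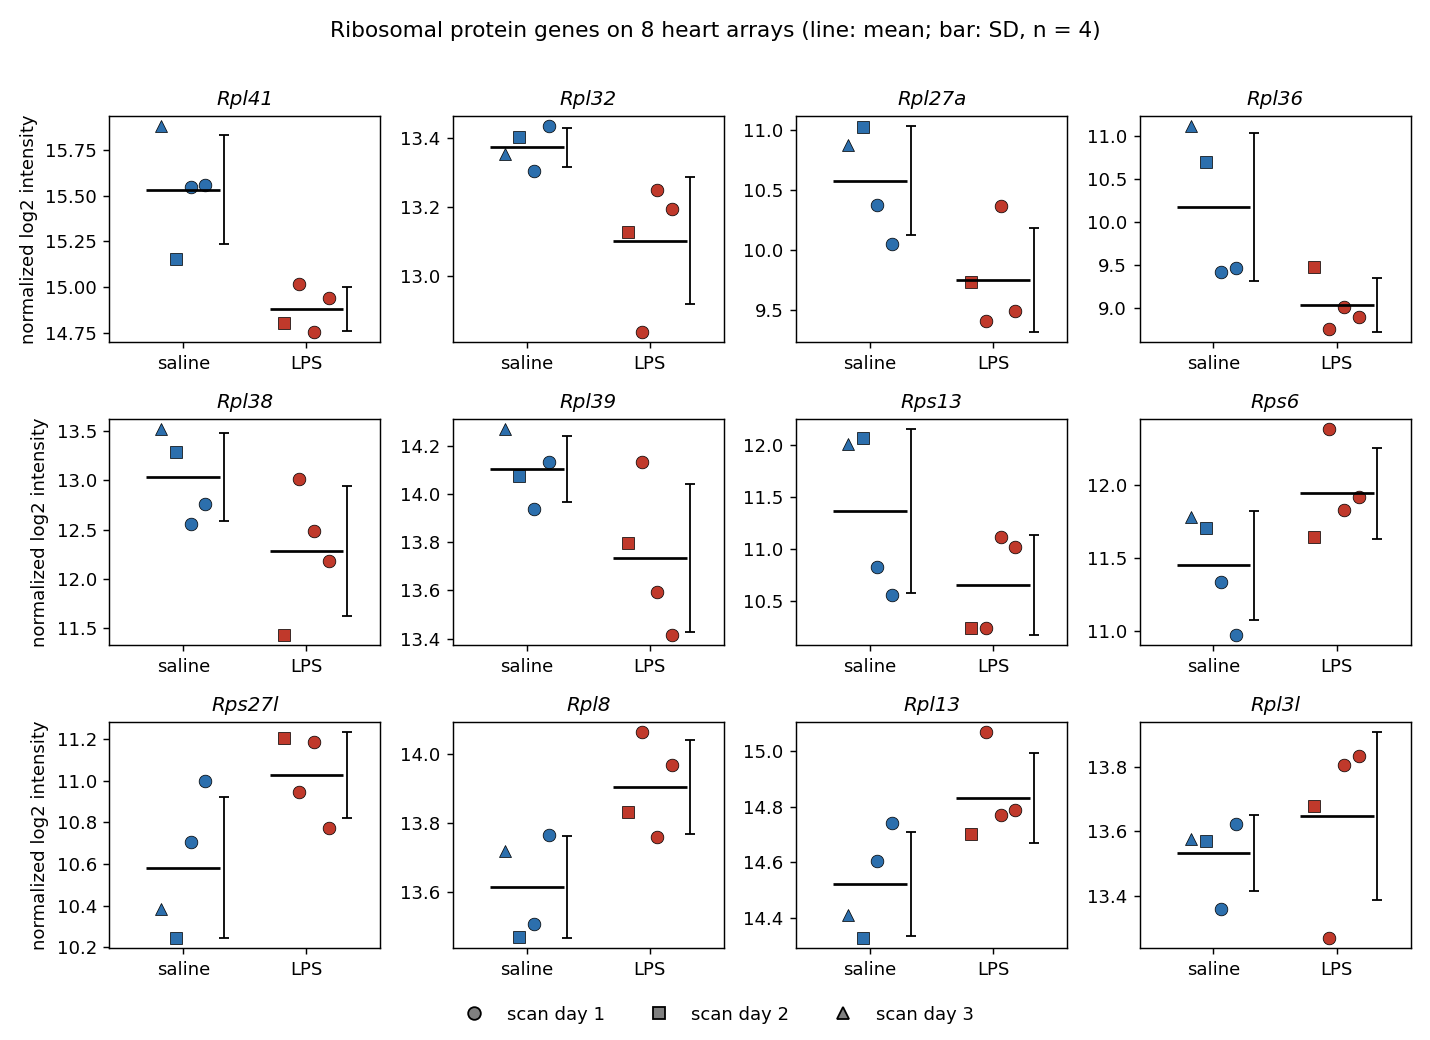
Normalized log2 intensity of 12 ribosomal protein genes on each of the 8 arrays, saline in blue and LPS in red; lines are means, bars are SD (n = 4), and marker shapes give the scan day. Groups are apart for Rpl41 and Rpl32 and overlap for the other genes. Saline 1 and saline 2 lie above the other saline arrays for Rpl27a, Rpl36, Rpl38, Rps13 and Rps6.

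The members with positive changes were not called. Rps6, the small subunit protein phosphorylated by S6 kinase downstream of mTOR, read 11.65, 12.38, 11.83 and 11.92 on the LPS arrays and 11.78, 11.70, 11.34 and 10.97 on the saline arrays. LPS 1 lay below saline 1 and saline 2. The change was 0.50 (SE 0.21, limma adjusted p = 0.135), and with array weights it was 0.71 (adjusted p = 0.0377; 0.0377 to 0.869 over the alternatives). It was 0.88 (adjusted p = 0.0831) within the first scan day. Rpl8, a protein near the peptidyl transferase centre, changed by 0.29 (SE 0.12, adjusted p = 0.136), with LPS arrays from 13.76 to 14.06 and saline arrays from 13.47 to 13.77. Rpl13, of the large subunit, changed by 0.31 (SE 0.14, adjusted p = 0.144) and passed the threshold under cyclic loess (0.46, adjusted p = 0.0360).

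The stalk proteins, which recruit the elongation factors to the large subunit, gave no call. Rplp0, the stalk base, read 7.22, 7.06, 6.75 and 6.96 on the LPS arrays and 6.94, 6.84, 6.45 and 6.70 on the saline arrays, where it was above background on 3. Its change was 0.27 (SE 0.15, limma adjusted p = 0.245), and its second probe gave 0.34. Rplp1, an acidic stalk protein, changed by -0.12 (SE 0.16, adjusted p = 0.621), and the probe of its partner Rplp2 was not well above background on any array. Rpl5 and Rpl11, which carry the 5S RNA into the large subunit and bind the p53 regulator Mdm2, changed by -0.0049 (SE 0.24) and 0.06 (SE 0.14). Rpl13a, known in human monocytic cells for a role outside the ribosome in silencing inflammatory messages after interferon-gamma, changed by 0.03 (SE 0.13, adjusted p = 0.890). Its groups covered nearly the same range, 9.83 to 10.28 with LPS and 9.95 to 10.20 with saline.

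Small subunit proteins with known further roles also lay near 0. Rps3, which forms part of the message entry site and is known as a DNA repair nuclease, changed by -0.09 (SE 0.28), and its second probe gave -0.21. Rps14, near the decoding centre, changed by 0.08 (SE 0.18), and Rps27a, made as a fusion with ubiquitin, by -0.11 (SE 0.26). Limma's adjusted p for these 3 genes ran from 0.796 to 0.843. No small subunit gene was called, and 2, Rps6 and Rps27l, had an unadjusted p under 0.05, both higher.

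Paralogs that can replace a ribosomal protein in particular tissues were compared with their parent genes, each probe on its own scale. Rpl3l, which replaces Rpl3 in heart and skeletal muscle, read 13.68, 13.27, 13.81 and 13.83 on the LPS arrays and 13.58, 13.57, 13.36 and 13.62 on the saline arrays. The LPS arrays held both the lowest and the highest values. Its change was 0.12 (SE 0.15, limma adjusted p = 0.623), 1.08 of the saline level with a 95% interval of 0.864 to 1.36. Rpl3 itself was not well above background on any array, at a probe net intensity of -4 to 7.

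Rps27l, a p53-induced paralog of Rps27, read 11.20, 10.95, 11.19 and 10.77 on the LPS arrays and 10.38, 10.25, 10.70 and 10.998 on the saline arrays. Only saline 4 reached into the LPS range. Its change was 0.44 (SE 0.18, limma adjusted p = 0.118), while the parent Rps27 changed by -0.23 (SE 0.23, adjusted p = 0.508); the difference between the genes was not tested. Within the first scan day Rps27l changed by 0.12 (adjusted p = 0.738). Rpl7l1 and Rpl7 changed by 0.23 (SE 0.15) and 0.19 (SE 0.22), and Rpl22l1 and Rpl22 by -0.12 (SE 0.26) and -0.02 (SE 0.16). Rpl36al, above background on 5 of the 8 arrays in all, and Rpl36a changed by 0.03 (SE 0.13) and 0.04 (SE 0.14), and Rpl10 by -0.07 (SE 0.14). Ribosomal protein genes have many near-identical copies in the genome, and how much of a signal comes from a copy was not tested.

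Of the 80 members 8 were not tested because their probes were above background on fewer than 4 arrays. They were Rpl3, Rpl14, Rpl39l, Rplp2, Rps4x, Rps19, Rps24 and Rpsa, the last also known as a laminin receptor. Such a probe gives only a bound, and ribosomes need the products of most of these genes, so their level is not given. For 61 of the 80 genes there was 1 probe. Where several probes of a gene were kept, in 11 genes, their changes differed by 0.07 to 0.23 in 7 genes and by 0.42 to 1.11 in Rps9, Rpl27a, Rps13 and Rpl38. When each of the 88 kept member probes entered the fit on its own, limma called 1 of them, where it called 17.5% of all kept probes.

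Many members differed between saline arrays of different scan days, which the file headers give. Saline 1 was scanned on the third day and saline 2 with LPS 1 on the second, and the other arrays were scanned on the first. In 35 of the 72 members (48.6%) both later saline arrays lay above both earlier ones, against 23.1% of all features, and in 11 (15.3%) they lay below, against 29.7%. The median difference between these pairs of saline arrays was 0.19 over the members and -0.03 over all features. It was largest in Rpl36 (1.47) and Rps13 (1.35), a small subunit protein, followed by Rpl30 (1.12), Rpl22l1 (0.95), Rps3a1 (0.92), Rpl21 (0.90) and Rps3 (0.89). It ran the other way in Rpl19 (-0.83) and Rps27l (-0.54), among others.

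Rps13 shows the extent. It read 12.01 and 12.07 on saline 1 and saline 2, 10.83 and 10.56 on saline 3 and saline 4, and 10.24, 10.25, 11.12 and 11.02 on the LPS arrays. Its change was -0.71 (SE 0.37, limma adjusted p = 0.212) over all arrays, and its second probe gave 0.03. Without a new fit, the mean of LPS 2, LPS 3 and LPS 4 minus that of saline 3 and saline 4 was 0.10. Among the saline arrays saline 1 held the highest value in 38 members (52.8%; 25.2% of all features) and saline 3 the lowest in 34 (47.2%; 24.9%). Among the LPS arrays LPS 2 held the highest value in 36 members (50%; 20.5%). LPS 1, scanned on the same day as saline 2, held the lowest in 32 (44.4%; 29%). The median of the members relative to the saline mean was -0.19 on LPS 1 and 0.05 on saline 2. Among the arrays of the first scan day alone limma called 1 of 71 members, Rpl41, and 3.86% of 10865 features. The arrays of both later days are of the same slide series as saline 3 and saline 4, and a redip mark of unstated meaning is on LPS 2, LPS 4, saline 2 and saline 4. The part of scan day in these differences was not tested.

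**Figure D3:**
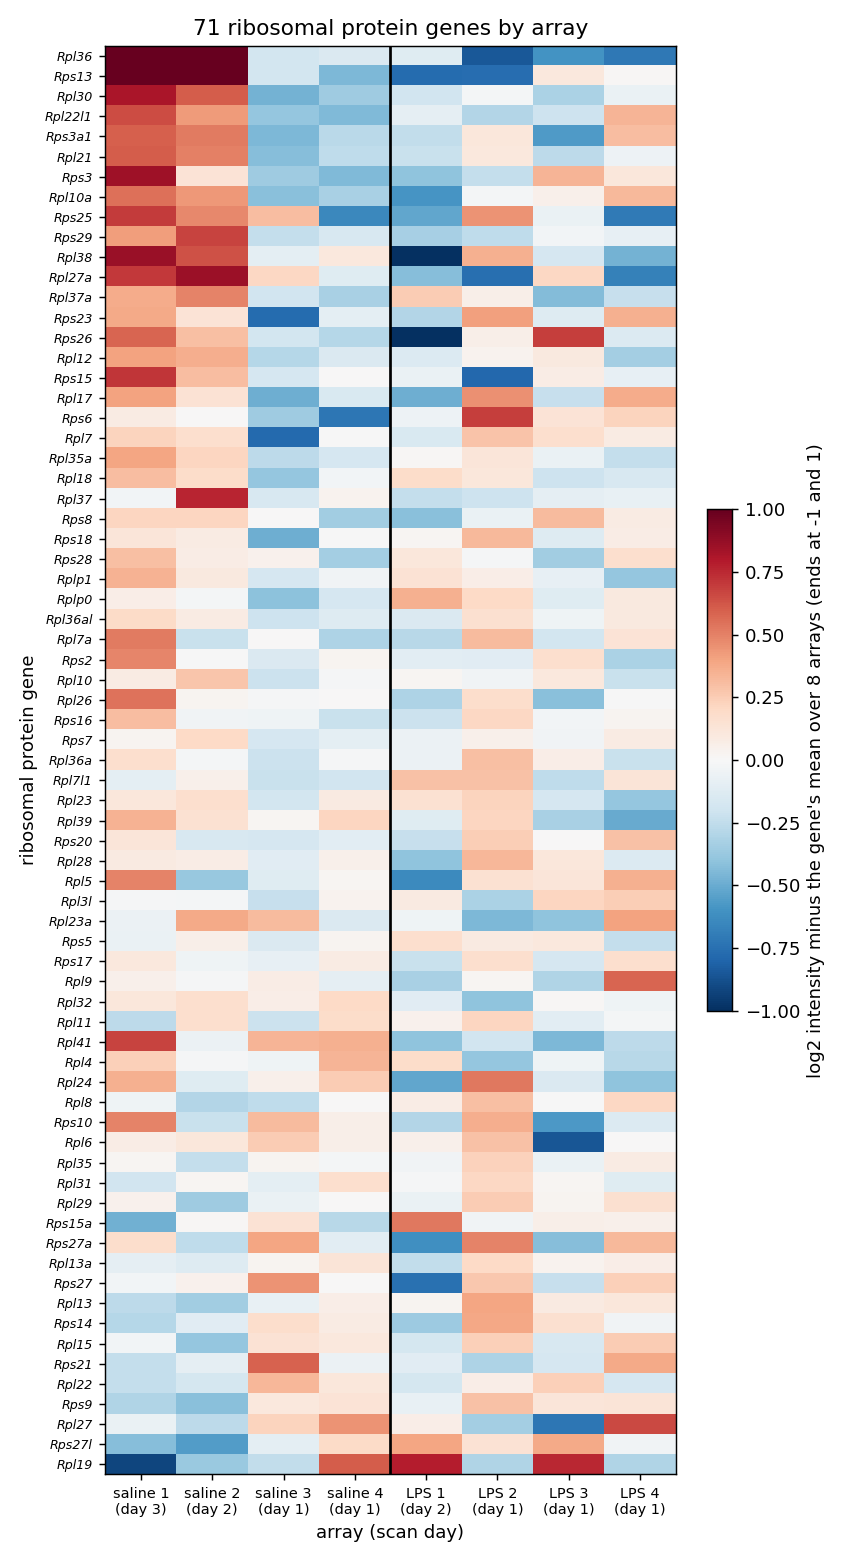
Log2 intensity of 71 of the 72 tested members on each array, minus the mean of that gene over the 8 arrays; colours end at -1 and 1, and genes are ordered by the difference between the later and the earlier saline arrays. Saline 1 and saline 2 are high for the upper rows, up to a difference of 1.47 for Rpl36, and the last rows (Rps27l and Rpl19) run the other way.

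Other genes of protein synthesis are set beside the ribosomal proteins because they make, start or regulate the ribosome. Of 62 tested genes of ribosome biogenesis and RNA polymerase I, 20 were called higher by limma and 0 lower, with a median change of 0.27. Over all features 9.3% were called higher and 9.35% lower. At an unadjusted limma p under 0.05, 27 biogenesis genes were higher and 0 lower, beside 1728 and 2220 of 12123 features. Rcl1, which acts in processing of the small subunit RNA, rose from 7.99, 7.91, 8.32 and 8.18 on the saline arrays to 10.10, 10.17, 9.24 and 10.13 on the LPS arrays. No LPS array reached down to the saline range, and the change was 1.81 (SE 0.21, adjusted p = 0.000407). Nop58 and Fbl, core proteins of the particles that methylate ribosomal RNA, rose by 1.73 (SE 0.19) and 1.12 (SE 0.18), and were chosen after their values were seen. Npm1, an abundant nucleolar chaperone, changed by -0.12 (SE 0.38, adjusted p = 0.850). The count higher was 4 within the first scan day and 4 under median scaling over all gene probes, and 9 without saline 1 and saline 2. Limma called 3.86%, 15.7% and 6.45% of all features in these settings, in either direction, against 18.7% in the main fit.

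CCGGAAG stood in the start regions of 10 of the 17 called biogenesis genes that had one (58.8%) and in 30.2% of the 63 genes of the list with a start region, and CACGTG in 9.52% of these. The same letters stood in 24.6% and 3.28% of ribosomal protein genes, and CCGGAAG stood in 7.68% of protein-coding genes.

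Of 37 initiation factors 6 were called higher and 0 lower by limma, with a median of 0.06, beside 9.3% and 9.35% of all features. At an unadjusted limma p under 0.05, 7 initiation factors were higher and 3 lower. Eif1a, a factor of start codon scanning, rose by 1.41 (SE 0.28, adjusted p = 0.00699). Its adjusted p was 0.113 within the first scan day (change 0.99) and 0.0902 without saline 1 and saline 2. Eif6, which binds the free large subunit, rose by 1.22 (SE 0.18, adjusted p = 0.00168), and the others called were Eif3b, Eif3f, Eif3d and Eif4a1; these 5 were chosen after their values were seen. Pabpc1, the poly(A) binding protein, whose message also has a TOP tract, changed by 0.25 (SE 0.14, adjusted p = 0.261). Of 8 elongation and termination factors limma called 0 (1 at an unadjusted p under 0.05, Etf1, higher by 0.35 with an adjusted p of 0.130). The elongation factor Eef2 changed by -0.0095 (SE 0.15), Eef1a1 by -0.19 (SE 0.36) and its muscle form Eef1a2 by 0.15 (SE 0.15).

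Of 21 regulators of mTOR signalling and TOP messages 2 were called higher and 0 lower by limma, with a median of 0.05. The share called higher is near the 9.3% of all features. At an unadjusted limma p under 0.05, 4 regulators were higher and 3 lower. Myc, the transcription factor known to drive ribosome genes, read 9.59, 9.0008, 8.31 and 9.04 on the LPS arrays and 6.48, 6.60, 6.86 and 6.48 on the saline arrays, above background on 3 of these. The groups were far apart, with a rise of 2.38 (SE 0.23, adjusted p = 0.000154). Rheb, the GTPase that activates mTOR, rose by 0.70 (SE 0.19, adjusted p = 0.0268), chosen after its value was seen. Eif4ebp1 is an inhibitor of the cap-binding factor Eif4e and is switched off by mTOR. It changed by 0.43 (SE 0.14, limma adjusted p = 0.0553), with no LPS array within the saline range. It was called in 5 of 25 alternatives (change 0.02 to 0.64, adjusted p 0.00738 to 0.966).

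Components of the ribosome under other symbols were also measured. Fau is a small subunit protein made as a fusion with a ubiquitin-like protein, and Rack1 is a signalling scaffold on the small subunit. They changed by -0.52 (SE 0.24) and 0.11 (SE 0.28), and limma called neither (adjusted p = 0.165 and 0.824). The ribosomal proteins of the mitochondrion, which belong to a separate ribosome, had 7 of 69 genes called lower and 0 higher, with a median of -0.18. The share called lower is near the 9.35% of all features. At an unadjusted limma p under 0.05, 17 of these 69 genes were lower and 1 higher, beside 2220 and 1728 of 12123 features.

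**Figure D4:**
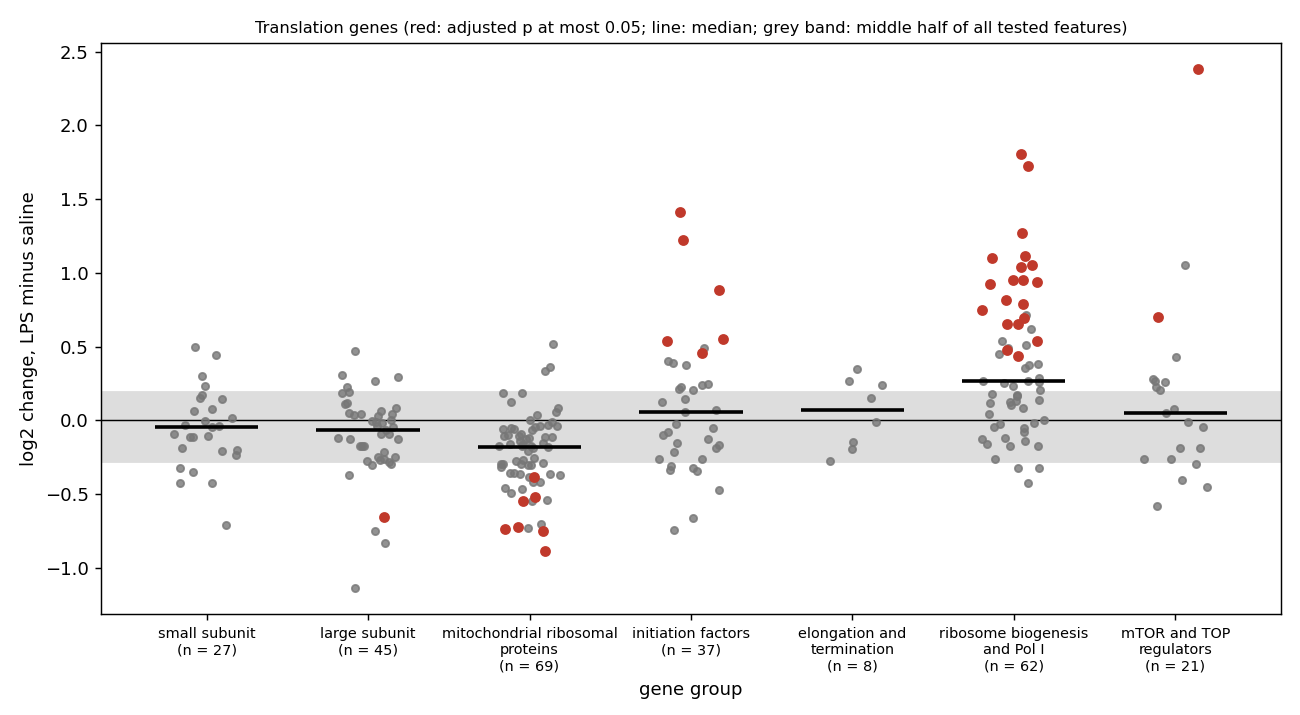
Log2 change, LPS minus saline, of each tested gene in 7 groups of translation genes; red points have an adjusted p of at most 0.05, lines are medians, and the grey band runs between the quartiles of all tested features (-0.28 to 0.19). The medians of the small and large subunit genes lie near 0 (-0.04 and -0.07), with 1 call in all. Of 62 biogenesis genes 20 were called higher, and the median of that group is 0.27.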

How the data were processed

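Per the file headers, the deposited scanner files hold median spot and local background intensity at 635 nm, not normalized, written by GenePix Pro 4.1.1.4 after scanning on a GenePix 4000B at gain 650 and a pixel size of 5 µm. The deposited log2 value table, whose identifiers match none in the scanner files, was not used. Intensities were corrected by normexp (offset 50), taken to log2 and quantile normalized with limma 3.58.1 in R 4.3.3. Quantile normalization removes any change shared by all genes, and the offset shrinks changes of dim probes. Probes above the 95th percentile of 94 negative-control spots on at least 4 of 8 arrays were kept, with a gene read from its brightest probe. LPS was compared with saline by lmFit and eBayes, two-sided, with Benjamini-Hochberg adjustment over all features. The procedure was also run on simulated data with independent noise for each gene and no effects shared by an array. That run does not bear on scan day or slide series. Accessions were matched to RefSeq names and start regions of GRCm38.p6.

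The members and the translation and marker lists were chosen with earlier results of these data known. By rule, the text names the largest called members, the paralogs with their parents, the stalk and other well-known members, and, of each translation list, the largest called rise and fall (or the smallest p) and some fixed genes. Equal replicate numbers were not treated as pairs. After removal of the group means, correlations between LPS and saline arrays of equal number ran from -0.136 to 0.0899. Such single-array values also hold differences between scan days, so they cannot show whether mice were paired. Alternatives covered offset, background, spot measure, normalization, filter, probe choice, prior, weights, blocks and left-out arrays. The number of arrays limits the precision. Values of 2 genes are not reported here.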

Additional observations from a re-analysis of the deposited data

Results flagged for a closer look

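Rps27, a zinc-finger protein of the small subunit, had 1 saline array apart from the others. Saline 3 read 11.99 and the other saline arrays 11.51 to 11.58, a gap of 0.859 of the range of the group. Of 52 groups tested in this way, 26 members in each treatment, it was the 1 past the limit, and chance passes about 1 in 20.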

How the results depend on the processing

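The count of called ribosomal protein genes stayed between 1 and 3 in all 25 alternatives, which tested 70 to 80 members, while the features called in all ran from 419 (within the first scan day) to 3102 (with mean spot intensity). It was 3, all lower, with an offset of 16 and with an intensity trend in the prior, and 3 with array weights (2 lower and 1 higher, Rps6). It was 2, both lower, with median scaling over the tested probes, with scan day as a block and with the replicate block. The replicate block added Rpl36 and gave 1972 features called in place of 2261. Replicate numbers are not known to pair the mice, and that fit is given for completeness. The count was 2 with mean spot intensity (1 higher, Rps15a), and cyclic loess gave 1 higher, Rpl13, and 0 lower. With slide series as a block the 1 called was Rpl38 (-1.60) in place of Rpl41. Leaving out single arrays gave 1 to 3 called, all lower, with 2 without LPS 3 or saline 3 and 3 without saline 4. The median change was -0.44 with median scaling over all gene probes and ran from -0.08 to 0.04 over single left-out arrays.

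Biogenesis genes called higher numbered 31 with mean spot intensity, 4 with median scaling over all gene probes (1 lower), 4 within the first scan day, 5 with slide series as a block and 9 without saline 1 and saline 2, the last chosen after the data were seen; with scan day as a block 1 was lower. Initiation factors called higher numbered 2 with median scaling over all gene probes, 3 over the tested probes, 2 within the first scan day, 3 with slide series as a block and 1 without saline 1 and saline 2. Left-out arrays gave 2 to 5 higher (2 without LPS 2, 3 without saline 1 or saline 2) and 0 to 2 lower. There was 1 initiation factor lower with the offset of 16, median scaling over the tested probes, the mean of the probes of a gene, the trend, array weights and scan day as a block. Called mTOR and TOP regulators were 1 higher with median scaling over all gene probes (2 lower), no filter, a filter on all 8 arrays, the first scan day, slide series as a block and without saline 1 and saline 2, and 2 were lower with mean spot intensity. Left-out arrays gave 1 to 2 higher and 0 to 1 lower. Of the other ribosome components 1, Fau, was lower with the replicate block. Over all features limma called 25.6% with mean spot intensity and 15.7% with median scaling over all gene probes. It called 3.86% within the first scan day and 6.45% without saline 1 and saline 2, beside 18.7% in the main fit. The cause of the differences between settings was not tested.

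Single-gene results were compared for a set of the named genes, of which only Rpl41, Rcl1, Eif1a and Myc were called in the main fit. Rpl32, Rps13, Nop58, Fbl, Eif6 and Rheb, among others, were not compared. Of 971 comparisons with an alternative 944 kept their side of the threshold. A call was gained in 22, lost in 5 and reversed in 0. A change of sign in a gene called in neither fit counted as kept, as in Rps3 (-0.51 to 0.46). With 4 arrays a group the median standard error of a member was 0.18 on the log2 scale (0.16 over all features).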
